A study of Mus musculus with 18 samples.

Results

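Of the 9650 genes that the deposited liver table annotates as long non-coding RNA (lncRNA) genes, 295 had a mean level of at least 1 FPKM (fragments corrected for gene length and for library size) over the 18 mice, and these 295 are described here across the 3 groups of the study. They were taken from all 54532 genes of the table by the biotypes lincRNA, lncRNA, antisense, processed_transcript, sense_intronic and bidirectional_promoter_lncRNA. They comprised 127 of 5559 lincRNA genes (intergenic), 98 of 2826 antisense genes, 50 of 780 processed transcripts, 17 of 165 genes starting at a bidirectional promoter and 3 of 320 sense intronic genes, and the table held 0 genes of the biotype lncRNA. A further 5409 lncRNA genes were at 0 in every mouse. The members were thus chosen by their mean level over all mice, which is given as a description, and not by any difference between groups. The members just inside the threshold were Gm36251 at 1.0011, AU020206 at 1.0101 and CT027991.1 at 1.0197 FPKM, and the genes just outside it were Gm11266 at 0.9991, Gm45051 at 0.9964 and Gm26967 at 0.9903 FPKM. Of the 295 members, 248 reached 1 FPKM in all 3 group means, 37 in 2 of them, 8 only in NC, 2 only in HFD and 0 only in SZ-A, so a few members reached the list through the group in which they were high. The 8 reached through NC alone include 3930402G23Rik and Gm34654, which are described without a test against NC.

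lncRNAs are transcribed by RNA polymerase II and are often spliced and polyadenylated like messenger RNA, but they are not known to encode a protein. Some act where they are made, on the neighbouring gene or on chromatin, some act elsewhere as scaffolds or decoys, and for others the transcript is a by-product of making a small RNA or of an active promoter or enhancer. In liver, individual lncRNAs have been tied to lipid, bile acid and glucose metabolism, and many are made mainly in hepatocytes.

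The liver RNA came from male C57BL/6 mice (C57BL/6J in the methods of the study) that were 6 weeks old when they entered the study, and livers were taken after a fast overnight. NC mice (n = 6) ate normal chow. HFD mice (n = 6) and SZ-A mice (n = 6) ate a high-fat diet for 14 weeks before treatment and throughout it, the first given saline and the second SZ-A, the alkaloid preparation from twigs of mulberry (Ramulus Mori). Treatment lasted 6 weeks by the methods but 8 by the deposited description, and the dose and route used for the sequenced mice are not given in the sources used here. The mouse NC6 was labelled with the high-fat diet against its title and was kept in NC by that title. Since all SZ-A mice ate the high-fat diet, SZ-A against HFD addressed the treatment, HFD against NC addressed the diet, and SZ-A against NC addressed the distance of the treated mice from normal controls. These comparisons share groups, so their values stand side by side and are not independent of each other. Each mouse was 1 library, and the p-values measure the spread between mice.

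Between 17163191 and 20493907 fragments per mouse fell on genes, and the members together took 44799 to 59593 of them. The hepatocyte markers Alb and Apoa1 lay at 16117 to 37152 and at 3504 to 13420 FPKM in all 18 mice, levels that go with the label liver. The libraries NC5 and SZ-A5 stood apart from their groups for several members. The numbers of members called in each comparison are therefore also given without them. The other counts are given with all mice only.

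The sequences that the main results turn on are shown first. Gm45044 was the single member called between SZ-A and HFD mice. Its annotated transcript, in the GENCODE annotation of GRCm38, is 396 bases long, and its first 300 bases are printed 5′ to 3′.
Gm45044 transcript: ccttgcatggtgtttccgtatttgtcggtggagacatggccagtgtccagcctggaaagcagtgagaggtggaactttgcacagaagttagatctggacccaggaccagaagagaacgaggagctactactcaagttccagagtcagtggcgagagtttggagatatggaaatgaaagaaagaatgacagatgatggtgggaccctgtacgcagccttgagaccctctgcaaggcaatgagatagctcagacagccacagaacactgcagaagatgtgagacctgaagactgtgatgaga
The start-site windows of 3 further members beside Irs2, and of the member with the greatest rise on the high-fat diet, come from the RefSeq promoter table for GRCm38.p6 and are 300 bases long on the strand of the gene. Capitals mark a CCAAT word (CCAAT or ATTGG) or a forkhead word (TGTTTAC or GTAAACA), both strands having been searched. B930025P03Rik lies at chr8:10882405-10882704, 4833411C07Rik at chr8:10899672-10899971, 3930402G23Rik at chr8:10928408-10928707 and C730036E19Rik at chr1:151137784-151138083. 4833411C07Rik and C730036E19Rik are on the plus strand and the others on the minus strand.
B930025P03Rik: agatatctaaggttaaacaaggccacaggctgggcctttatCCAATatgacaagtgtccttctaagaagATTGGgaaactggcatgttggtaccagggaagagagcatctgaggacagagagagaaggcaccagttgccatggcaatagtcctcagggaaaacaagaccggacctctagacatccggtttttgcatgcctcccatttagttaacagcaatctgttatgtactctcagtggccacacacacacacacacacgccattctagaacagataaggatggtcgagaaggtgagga
4833411C07Rik: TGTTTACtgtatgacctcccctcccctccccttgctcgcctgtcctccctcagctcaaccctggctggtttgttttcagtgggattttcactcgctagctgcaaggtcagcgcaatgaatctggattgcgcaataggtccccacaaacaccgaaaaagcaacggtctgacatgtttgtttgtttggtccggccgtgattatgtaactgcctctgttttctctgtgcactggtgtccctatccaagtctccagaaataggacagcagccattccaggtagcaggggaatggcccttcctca
3930402G23Rik: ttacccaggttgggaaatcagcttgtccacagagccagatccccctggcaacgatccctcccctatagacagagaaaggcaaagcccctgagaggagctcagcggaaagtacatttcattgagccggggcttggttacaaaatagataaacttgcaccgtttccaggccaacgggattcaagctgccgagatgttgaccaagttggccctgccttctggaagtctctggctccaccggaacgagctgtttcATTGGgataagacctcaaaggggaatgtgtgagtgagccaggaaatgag
C730036E19Rik: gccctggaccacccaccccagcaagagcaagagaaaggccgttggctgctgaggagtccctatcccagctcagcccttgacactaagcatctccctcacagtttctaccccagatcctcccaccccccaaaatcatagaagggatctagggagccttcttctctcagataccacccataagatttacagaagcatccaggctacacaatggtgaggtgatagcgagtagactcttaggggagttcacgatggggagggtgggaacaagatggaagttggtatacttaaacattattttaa

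Windows of this length were in the table for 177 members (248 windows). The forkhead word was in 12.1% of the members' windows, in 2.77% of the 9428 windows of protein-coding genes at the same level or above, and in 3.65% of all 32851 windows. The TATA word (TATAAA or TTTATA) was in 18.5%, 7.30% and 13.6%, the E-box (CACGTG) in 9.27%, 10.4% and 7.15%, and the CCAAT word in 31.9%, 37.7% and 37.4%. These shares were not tested against each other. The matches describe letters, not sites bound by a factor, and several windows can belong to 1 gene.

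As a class the members were short and low. Their median length was 1113 bases against 4115 for protein-coding genes at the same threshold, and their median level, on the FPKM scale that corrects for length, was 2.20 against 5.39 FPKM. Only 37 members averaged at least 10 FPKM and 139 were below 2 FPKM. A member had a median of 57 fragments in a mouse, 57 members had a median under 20 fragments, and 7 were at 0 in some mouse. The median SD between mice of a group, on the log2 scale, was 0.42 for members and 0.21 for all 10216 genes tested, so a change of a given size was harder to detect for members. All 295 are in the GENCODE annotation, 289 at the same position. The bodies of 166 overlapped no protein-coding gene and those of 129 did (118 on the other strand, 12 on the same). In 93 of these, exon bases were shared with a coding gene. The start sites of 83 members lay within 1000 bases of a coding start, 80 of them on the other strand. The libraries were not stated to keep strand, so reads of overlapping genes on opposite strands cannot be told apart. RefSeq lists 11 of the members as protein-coding, 4 as pseudogenes and 200 as lncRNA under the same symbol, and 80 had no match. A transcript near-identical over most of the length was found elsewhere for 6 members, in a search that left out other lncRNA transcripts.

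With the FPKM as deposited, more members were called lower than higher on the diet. A member counted as called in limma, on log2(FPKM + 0.1), if its p adjusted by Benjamini-Hochberg over all 10216 genes was under 0.05 and its fold change over 1.2. In HFD against NC 74 of 295 members were called, or 25.1%, against 20.2% of all genes tested. Of these, 27 were higher in HFD mice (all genes 10.7%) and 47 lower (all genes 9.49%). Of the 47, 6 were among the 8 members that reached 1 FPKM through NC alone, and without those 8 the counts were 27 higher and 41 lower of 287. The median log2 fold change of the members was −0.13 and that of all genes −0.03. This balance depended on scaling, and so did that of all genes (1092 higher and 970 lower as deposited). With all mice brought to the same FPKM sum, the median of all genes moved to 0.15 and that of the members to 0.05. There, 42 members were higher and 24 lower, against 2100 and 334 of all 10216 genes. With voom on plain library totals 38 members were higher and 25 lower (all genes 2010 and 409). Median-ratio scaling left the values nearly as deposited (median of all genes −0.0332 against −0.0334), so it could hardly change the balance. It gave 27 members higher and 47 lower (all genes 1091 and 970). Voom on median-ratio library sizes, close to the same scale (median of all genes −0.0345), gave 24 and 41 (all genes 1101 and 978). Without NC5 28 members were higher and 40 lower (all genes 1089 and 1056). Without NC6, the mouse with conflicting labels, 27 members were higher and 42 lower (all genes 1061 and 964). The members were called in similar shares with and without overlap of a coding gene body (35 of 129 and 39 of 166). Of the lincRNA genes 12 rose and 19 fell, of the antisense genes 8 rose and 20 fell, and of the processed transcripts 6 rose and 5 fell. The groups HFD and NC did not overlap for 33 members (11.2%), against 10.5% of all genes. That count includes 3930402G23Rik, on the list only through NC, and was not made without such members.

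In SZ-A against NC 43 members were called (14.6%, against 9.6% of all genes), 23 higher (all genes 5.31%) and 20 lower (all genes 4.3%) in SZ-A mice. Without the 8 members that reached 1 FPKM through NC alone, 23 were higher and 16 lower. The median log2 fold change was −0.05 for members and −0.01 for all genes. Without NC5 the count was again 43 (25 higher and 18 lower), where 1151 of all genes were called. Without SZ-A5 it was 50 (all genes 1179), and without SZ-A3 it was 27 (all genes 601). In SZ-A against HFD 1 member was called (0.339%, against 0.147% of all genes), the lincRNA gene Gm45044, which was higher in SZ-A mice (0.0783% of all genes were called higher and 0.0685% lower). In that comparison 33 members had an unadjusted p under 0.05, or 11.2% as against 14.8% of all genes. Without SZ-A5, 0 members were called (all genes 31). The plot of fold change by level shows these 3 comparisons for each member. A total of 210 members were called in no comparison, 53 in 1, 31 in 2 and 1 in all 3. The same tally was not made over all genes, so it does not set the members apart from them.

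**Figure D1:**
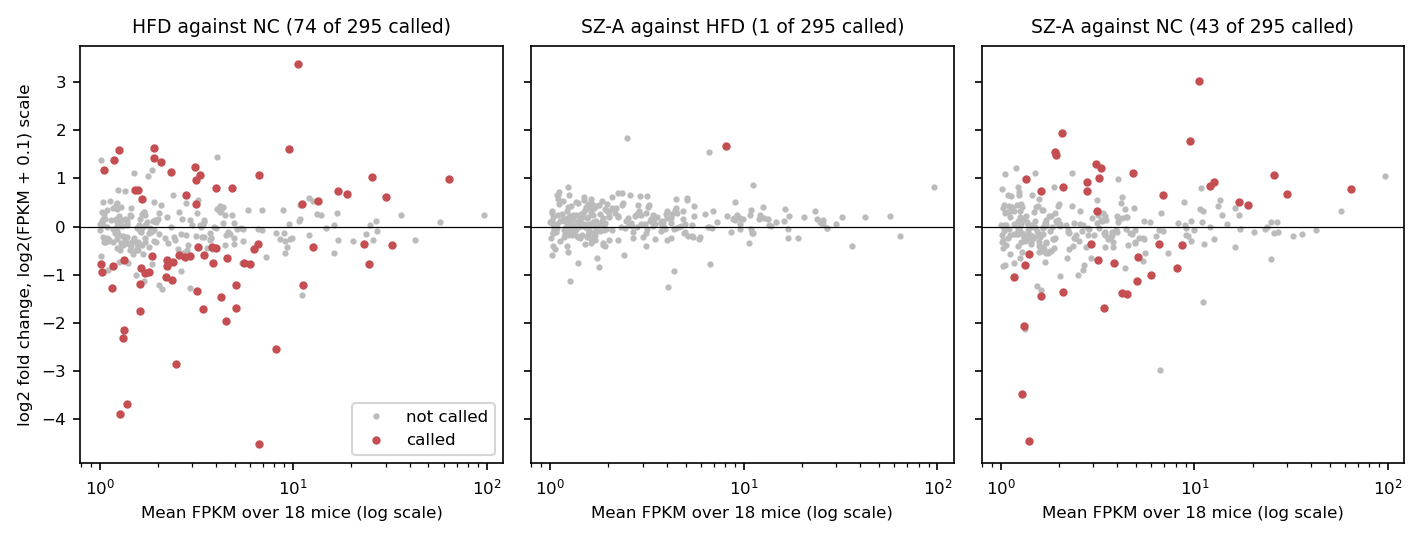
log2 fold change of the 295 members, on the log2(FPKM + 0.1) scale, against their mean level over 18 mice (FPKM, log axis), with 1 panel per comparison and called members in colour. The called members number 74 in HFD against NC, 43 in SZ-A against NC and 1 in SZ-A against HFD, and they span the range of levels.

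The most marked group of members lay together on chromosome 8, beyond the 3′ end of Irs2. Irs2 encodes an adaptor that carries the signal of the insulin receptor and is induced by fasting in liver. The members 3930402G23Rik, Gm2814, 4833411C07Rik, Gm45044 and B930025P03Rik lie 55.985 to 102.227 kb beyond the end of Irs2, and all but 3930402G23Rik, which is given without a test, were called lower in HFD mice. Gm2814 and 4833411C07Rik were named because they lie among the other 3, after their values were seen. Nothing is known here of the function of these 5 RNAs.

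Gm45044 (chr8:10884453-10891591, minus strand) was at 7.64, 14.8 and 17.8 FPKM in NC mice (lowest, median and highest). It was at 1.4, 2.22 and 4.8 FPKM in HFD mice and at 4.2, 8.86 and 10.3 FPKM in SZ-A mice. NC and HFD mice did not overlap, and SZ-A mice overlapped both groups. The lowest SZ-A mouse, at 4.2 FPKM, lay below the highest HFD mouse, HFD6, at 4.8 FPKM, and the highest SZ-A mice lay above the lowest NC mouse. The means were 14.1 ± 3.79, 2.44 ± 1.23 and 7.79 ± 2.45 FPKM (SD, n = 6 each), from 49 to 143, 11 to 40 and 33 to 71 fragments a mouse. In limma the log2 fold change was −2.55 (SE 0.27, adjusted p = 8.95e-05) in HFD against NC, 1.68 (SE 0.29, adjusted p = 0.0451) in SZ-A against HFD and −0.86 (SE 0.25, adjusted p = 0.0447) in SZ-A against NC. The fall on the diet held under all 24 alternative settings. The rise with SZ-A kept its direction, at 1.36 to 1.89, but missed the threshold in 13 of 24 settings, with adjusted p of 0.0126 to 0.132, among them 9 of the 12 in which 1 mouse was left out. The difference from NC missed it in 16 of 24 settings, with adjusted p of 0.00539 to 0.107.

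B930025P03Rik (chr8:10870422-10882454, minus strand), the next gene beyond Gm45044, was at 2.78, 4.13 and 7.2 FPKM in NC mice. It was at 0.192, 0.468 and 1.55 FPKM in HFD mice and at 0.685, 2.51 and 3.63 FPKM in SZ-A mice. Again NC and HFD mice did not overlap and SZ-A mice overlapped both groups. The log2 fold change was −2.86 (SE 0.35, limma adjusted p = 0.000186) in HFD against NC. It was 1.85 (SE 0.42, adjusted p = 0.0961) in SZ-A against HFD and −1.02 (SE 0.33, adjusted p = 0.07) in SZ-A against NC, neither of which was called. Without SZ-A2 the first was called (2.14, adjusted p = 0.0309), as was the second without SZ-A5 (−1.17, adjusted p = 0.0381). The highest HFD mouse was HFD6, as for Gm45044.

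3930402G23Rik (chr8:10924427-10928696, minus strand), the member nearest Irs2, was at 1.67, 2.27 and 9.29 FPKM in NC mice. It was close to nothing in both groups on the high-fat diet, at 0.0303, 0.0945 and 0.225 FPKM in HFD mice and at 0.0332, 0.1 and 1.07 FPKM in SZ-A mice. NC mice overlapped neither group. Since the gene reached the list only through its level in NC mice, a difference from NC was built into its choice, and its log2 fold changes of −3.91 (SE 0.38) in HFD against NC and −3.48 (SE 0.52) in SZ-A against NC are a description, with no test. HFD mice had 2 to 14 fragments of this gene and NC mice 97 to 500, so the size of the fold depends on the pseudocount (−1.84 to −4.88 over the settings). In SZ-A against HFD the difference was 0.43 (SE 0.60, adjusted p = 0.784), which covers no change as well as a rise.

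Gm2814 and 4833411C07Rik share 637 bases of their bodies on opposite strands, so part of their reads cannot be told apart. Gm2814 (chr8:10898169-10900558, minus strand) was at 3.83, 4.54 and 5.88 FPKM in NC, at 1.1, 1.77 and 2.97 FPKM in HFD and at 2.05, 2.85 and 4.31 FPKM in SZ-A mice. 4833411C07Rik (chr8:10899922-10903893, plus strand) was at 6.2, 7.01 and 8.87 FPKM, at 1.87, 3.29 and 5.09 FPKM and at 3.02, 4.64 and 6.57 FPKM. For both, NC and HFD mice did not overlap and SZ-A mice overlapped both. In HFD against NC the log2 fold changes were −1.34 (SE 0.20, limma adjusted p = 0.000695) and −1.23 (SE 0.20, adjusted p = 0.00112), and in SZ-A against NC −0.69 (adjusted p = 0.0272) and −0.64 (adjusted p = 0.0388). The calls against NC in SZ-A mice were lost in 6 of 23 settings for Gm2814 and in 13 of 24 for 4833411C07Rik. In SZ-A against HFD the log2 fold changes were 0.64 (SE 0.22, adjusted p = 0.2) and 0.59 (SE 0.24, adjusted p = 0.272), and neither was called. Gm32540, a lncRNA gene below the threshold still farther from Irs2 and named after its values were seen, was at 0.759 to 1.39 FPKM in NC, 0.0288 to 0.177 FPKM in HFD and 0 to 0.917 FPKM in SZ-A mice.

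Irs2 itself (chr8:10984681-11008458, minus strand) varied widely within groups. It was at 1.71, 6.69 and 10.3 FPKM in NC, at 1.04, 3.2 and 5.77 FPKM in HFD and at 0.781, 4.59 and 7.46 FPKM in SZ-A mice, and all 3 groups overlapped. Its log2 fold change was −0.87 (SE 0.45, limma adjusted p = 0.188) in HFD against NC and 0.37 (adjusted p = 0.786) in SZ-A against HFD. The plot of Irs2 and its neighbours shows a wider gap between NC and HFD mice for Gm45044 and B930025P03Rik than for Irs2. Whether the lncRNA genes and Irs2 differ in their response was not tested.

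**Figure D2:**
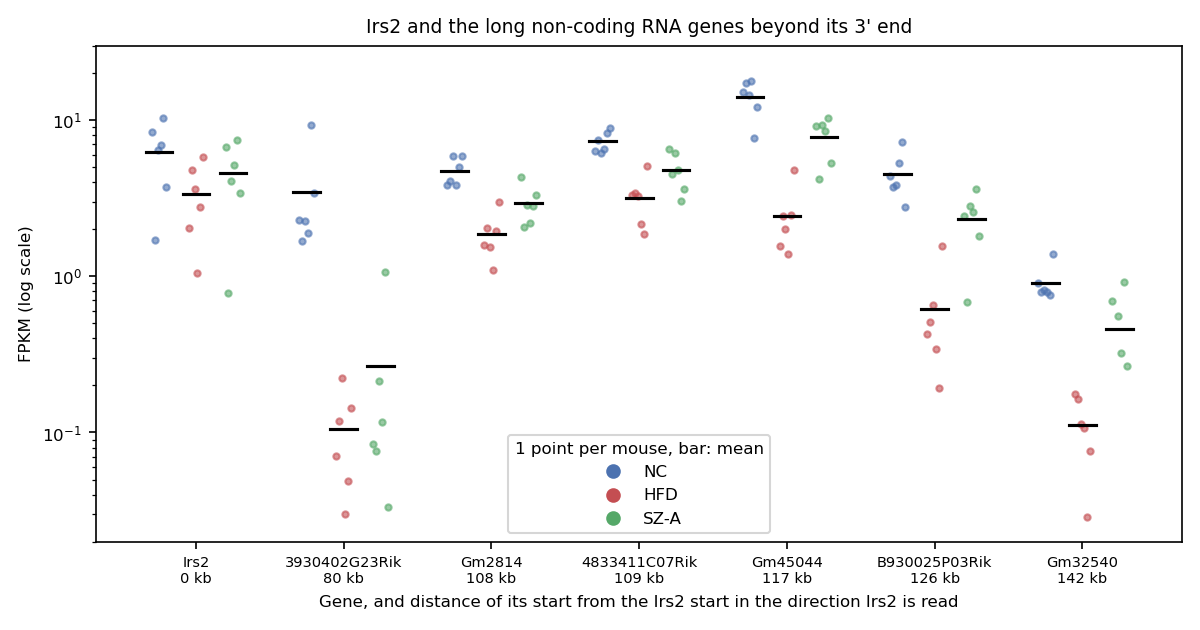
Levels of Irs2 and of the lncRNA genes beyond its 3′ end in each mouse (FPKM, log axis), with 1 point per mouse, a bar for the group mean, and each gene's distance in kb from the start of Irs2 under its name. NC and HFD mice do not overlap for Gm45044, B930025P03Rik, Gm2814 and 4833411C07Rik (as for 10.5% of all genes tested), while they overlap for Irs2. For 3930402G23Rik, on the list only through NC, the gap was built into its choice. Gm2814, 4833411C07Rik and Gm32540 were named after their values were seen, and 1 SZ-A mouse at 0 for Gm32540 is not drawn.

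Over the 18 mice, the members whose log2 levels were most like that of Gm45044 were B930025P03Rik (Pearson's r = 0.91), Gm2814 (0.85), C330002G04Rik (0.81), Gt(ROSA)26Sor (0.80) and 4833411C07Rik (0.79). The most alike protein-coding genes were Elovl2 (0.91), an elongase of polyunsaturated fatty acids, Sfmbt1 (0.89), Igfbp2 (0.89), a binding protein for insulin-like growth factors, Zfand6 (0.88) and Kcmf1 (0.88). For Irs2 r was 0.52. All points share the 3 groups, and after removing group means r fell to between 0.25 (Igfbp2) and 0.58 (Sfmbt1) for these 10 genes, with 0.56 for B930025P03Rik, 0.47 for Elovl2 and 0.27 for 4833411C07Rik, and was 0.49 for Irs2. These values describe likeness only.

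Outside the Irs2 region, Gm30784, Ctcflos and Gm11832 were named by lowest adjusted p among members called lower in either high-fat group against NC. Gm34654 came under the same rule, but it reached the list only through NC, so it is described with no test. Gm30784 (chr6:141866358-141875220, plus strand) starts 10159 bases from Slco1a4, which encodes a transporter of organic anions such as bile acids. It was at 4.69, 7.54 and 16.6 FPKM in NC, at 1.43, 1.91 and 2.41 FPKM in HFD and at 1.98, 3.06 and 4.53 FPKM in SZ-A mice. NC mice overlapped neither group. The log2 fold change was −1.97 (SE 0.24, limma adjusted p = 0.000173) in HFD against NC and −1.40 (SE 0.27, adjusted p = 0.00681) in SZ-A against NC. Slco1a4 also fell, by 1.76 on the log2 scale in HFD against NC (adjusted p = 0.000253) and by 1.89 in SZ-A against NC (adjusted p = 0.00925).

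Ctcflos (chr2:173110818-173133204, plus strand) shares 3.4% of its exon bases with Ctcfl, which encodes a germline relative of the chromatin protein CTCF. It was at 5.23, 7.01 and 9.81 FPKM in NC, at 1.88, 2.52 and 3.83 FPKM in HFD and at 1.48, 2.76 and 3.99 FPKM in SZ-A mice. Every NC mouse lay above every mouse of the other groups. The log2 fold change was −1.46 (SE 0.18, limma adjusted p = 0.000186) in HFD against NC and −1.39 (SE 0.20, adjusted p = 0.00181) in SZ-A against NC. Ctcfl fell by 1.23 (adjusted p = 0.000608) and by 1.09 (adjusted p = 0.00309) on the log2 scale.

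Gm34654 (chr9:77807036-77809793, minus strand) was at 0.744, 3.84 and 5.77 FPKM in NC mice. It was at 0, 0.0498 and 1.42 FPKM in HFD mice, and in SZ-A mice 4 of 6 were at 0 and the highest had 0.377 FPKM, from 4 fragments. It too reached the list only through its level in NC mice, so the log2 fold changes of −3.70 (SE 0.72) in HFD against NC and −4.46 (SE 0.52) in SZ-A against NC are a description, with no test, and the second ranged from −2.0 to −6.8 with the setting. The nearest coding gene, Gclc, which encodes the catalytic subunit of the enzyme that limits glutathione synthesis, rose by 0.76 (SE 0.21, adjusted p = 0.0216) in HFD against NC. Gclc was at 26.3, 56.9 and 76.6 FPKM in NC and at 77, 91.4 and 111 FPKM in HFD mice. Gm11832, inside the DNA repair gene Rad54b with 1.6% of its exon bases shared, was at 4.29, 5.77 and 7.77 FPKM in NC, 0.22, 2.4 and 3.33 FPKM in HFD and 0.893, 1.28 and 4.35 FPKM in SZ-A mice. Its log2 fold change in limma was −1.71 (SE 0.47, adjusted p = 0.0204) in HFD against NC and −1.69 (SE 0.36, adjusted p = 0.011) in SZ-A against NC.

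The member with the greatest rise on the diet was C730036E19Rik (chr1:151138034-151142345, plus strand), also known as lncLSTR, a hepatocyte lncRNA known for its part in plasma triglyceride handling. It was at 0.392, 1.71 and 2.79 FPKM in NC mice. It was at 13.2, 16.1 and 19.2 FPKM in HFD mice and at 4.52, 15.2 and 18.3 FPKM in SZ-A mice. Neither group on the high-fat diet overlapped NC, and among SZ-A mice only SZ-A5 lay below 13.3 FPKM. The means were 1.71 ± 0.902, 16.3 ± 2.17 and 13.8 ± 4.86 FPKM (SD, n = 6 each). The log2 fold change was 3.37 (SE 0.34, limma adjusted p = 5.82e-05) in HFD against NC, 3.03 (SE 0.43, adjusted p = 0.00172) in SZ-A against NC and −0.35 (SE 0.28, adjusted p = 0.6) in SZ-A against HFD.

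1810058I24Rik (chr6:35252654-35263496, plus strand), which RefSeq lists as the gene of a small mitochondrial protein, was at 10.4, 15.7 and 18.6 FPKM in NC mice. It was at 25.4, 31.1 and 32.7 FPKM in HFD and at 20.6, 31.9 and 40.1 FPKM in SZ-A mice, with no overlap between NC and either group. The log2 fold change was 1.02 (SE 0.12, limma adjusted p = 0.000188) in HFD against NC and 1.07 (SE 0.17, adjusted p = 0.00247) in SZ-A against NC. 1700080G11Rik (chr4:127531622-127532885, plus strand) was at 1.7, 3.96 and 6.08 FPKM in NC, at 6.97, 10.4 and 19.2 FPKM in HFD and at 7.61, 12.5 and 20.2 FPKM in SZ-A mice. It rose by 1.60 (SE 0.28, adjusted p = 0.00178) and by 1.78 (SE 0.27, adjusted p = 0.00205) on the log2 scale, and NC mice again lay below all others.

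Gm15318 (chr17:31152752-31163052, plus strand) was at 0.509 to 1.15 FPKM in NC, 1.45 to 2.95 FPKM in HFD and 1.72 to 3.32 FPKM in SZ-A mice. It rose by 1.42 (SE 0.20, limma adjusted p = 0.000564) in HFD against NC and by 1.49 (SE 0.21, adjusted p = 0.00165) in SZ-A against NC. It shares 9.3% of its exon bases with Tff1, a trefoil peptide gene of the stomach whose group means here were 0.04, 0.0654 and 0.29 FPKM. Gm40770, near the RNA processing gene Cpsf6, was at 0.263 to 1.3 FPKM in NC, 2.09 to 3.07 FPKM in HFD and 1.79 to 3.03 FPKM in SZ-A mice, a rise of 1.63 (SE 0.28, adjusted p = 0.00137) and 1.54 (SE 0.29, adjusted p = 0.00615). For both members all NC mice lay below all other mice. Gm49172, antisense to the phospholipid scramblase gene Ano6, was at 0.95 to 1.23 FPKM in NC, 1.51 to 2.33 FPKM in HFD and 1.01 to 2.16 FPKM in SZ-A mice. It rose by 0.76 (SE 0.12, adjusted p = 0.000762) in HFD against NC, while SZ-A mice overlapped both groups (0.40 against NC, adjusted p = 0.16). 4930581F22Rik, which shares 8.8% of its exon bases with the sialyltransferase gene St3gal4, was at 1.65 to 2.3 FPKM in NC, 2.38 to 3.52 FPKM in HFD and 3.22 to 4.04 FPKM in SZ-A mice, with log2 fold changes of 0.66 (adjusted p = 0.00152) and 0.92 (adjusted p = 0.000274). The plot of members by mouse shows how the mice of each group are spread for 8 of the members named.

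**Figure D3:**
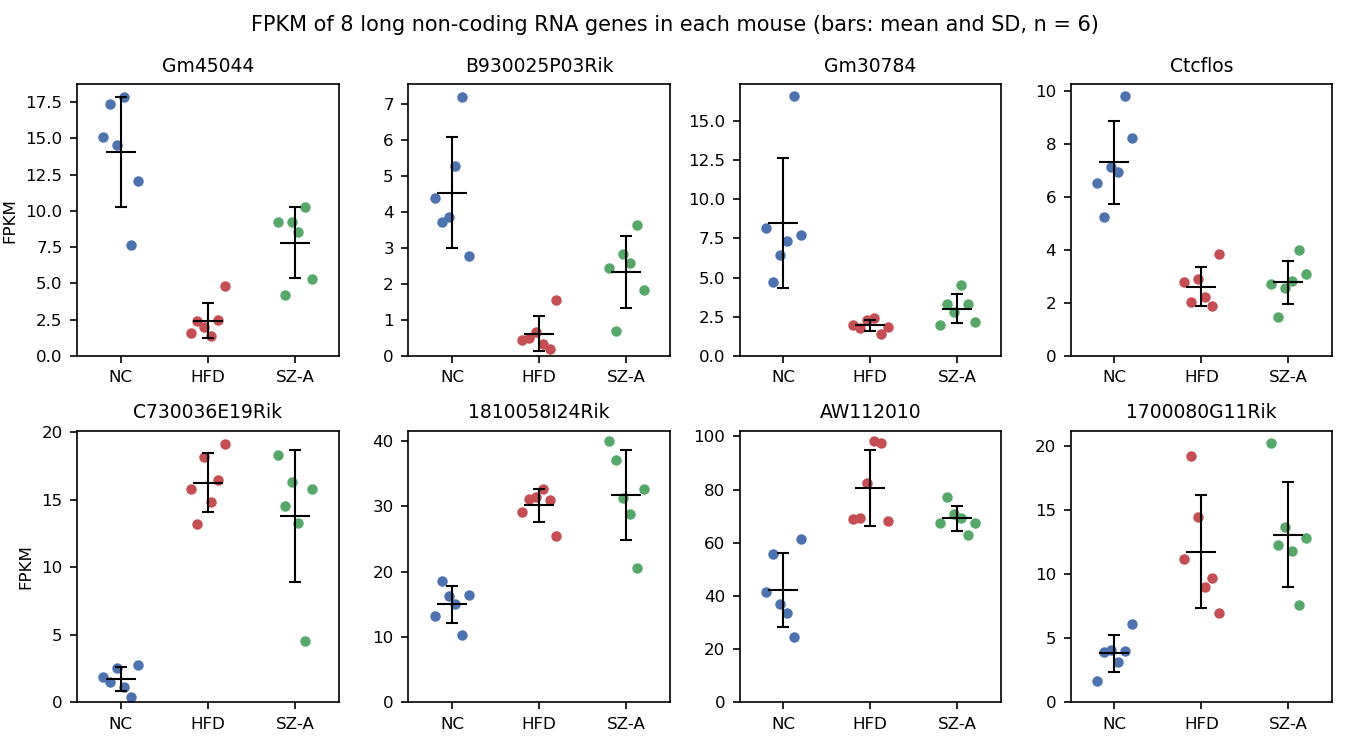
Levels of 8 members in each mouse (FPKM), 1 panel per member, with 1 point per mouse and the mean ± SD of the 6 mice of each group. For Gm45044 and B930025P03Rik the SZ-A mean lies between those of HFD and NC and the SZ-A mice overlap both groups, while for C730036E19Rik, 1810058I24Rik, AW112010 and 1700080G11Rik all SZ-A mice lie above NC, SZ-A5 at 4.52 FPKM of C730036E19Rik being far below the HFD mice.

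For the members of the diet comparisons outside the Irs2 region, SZ-A against HFD gave adjusted p of 0.185 (Gm30784) or above, apart from Gm16536. Gm16536 (chr9:45856769-45858357, minus strand), a single-exon antisense gene within Bace1, was the only member whose SZ-A and HFD mice did not overlap (0.339% of members, against 1.28% of all genes). It was at 2.89, 3.59 and 3.96 FPKM in NC, at 2.24, 2.52 and 3.06 FPKM in HFD and at 3.31, 3.36 and 3.92 FPKM in SZ-A mice. It fell by 0.44 (SE 0.10, limma adjusted p = 0.00717) in HFD against NC, a call that was lost with rescaled FPKM (−0.25, adjusted p = 0.0704) and with voom on plain library totals (−0.29, adjusted p = 0.0831). Its log2 fold change in SZ-A against HFD was 0.41 (SE 0.08, adjusted p = 0.0693), which was not called, but was called without HFD5 (0.45, adjusted p = 0.03). Bace1, the beta-secretase gene on the other strand, was at 3.72, 5.19 and 5.56 FPKM in HFD and at 3.99, 4.58 and 4.97 FPKM in SZ-A mice (−0.14, adjusted p = 0.561).

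The highest members by level were, in order of their mean over 18 mice, Gm10076 (96.5 FPKM), AW112010 (64.1), BC024386 (57.2), 0610005C13Rik (42.4), Gm26917 (36.1), Cct6a (32.3), Gm48633 (30.002), Tmem250-ps (27.0), Ndufb1-ps (26.9) and 2410006H16Rik (25.8). The ranges of neighbours in this order overlapped in all 3 groups, except for BC024386 and 0610005C13Rik in HFD mice and Gm48633 and Tmem250-ps in SZ-A mice. AW112010, an RNA that inflammatory signals induce in immune cells, was at 24.7, 39.2 and 61.4 FPKM in NC, at 68.1, 75.8 and 98.4 FPKM in HFD and at 62.8, 68.6 and 77.3 FPKM in SZ-A mice. It rose by 0.98 (SE 0.20, limma adjusted p = 0.00424) in HFD against NC and by 0.77 (SE 0.18, adjusted p = 0.0187) in SZ-A against NC, and every NC mouse lay below every other mouse. Gm48633, whose start lies 27587 bases from that of the apolipoprotein gene Apob, was at 16.6, 20.7 and 33.5 FPKM in NC, at 27.3, 32.7 and 39.3 FPKM in HFD and at 28.9, 35.3 and 39.9 FPKM in SZ-A mice, a rise of 0.62 (adjusted p = 0.0179) and of 0.68 (adjusted p = 0.0213). The call in SZ-A against NC was lost without SZ-A3 (0.64, adjusted p = 0.054). Cct6a, a chaperonin subunit gene that RefSeq lists as protein-coding, fell from 29.8, 37.8 and 40 FPKM in NC to 23.8, 28.2 and 34.1 FPKM in HFD mice, by 0.39 (SE 0.10, limma adjusted p = 0.014) on the log2 scale. That call was lost with rescaled FPKM (−0.20, adjusted p = 0.0779), and with voom on plain library totals the fold change was under 1.2 (−0.24, adjusted p = 0.0483). The other 7 of these 10 were called in no comparison. Among them, RefSeq lists Tmem250-ps as protein-coding and Gm10076 as a pseudogene. BC024386 was at 46.2 to 58 FPKM in NC, 43.3 to 77.7 FPKM in HFD and 39.1 to 83.9 FPKM in SZ-A mice, and 0610005C13Rik at 37.7 to 61.2, 32.6 to 40.3 and 36.9 to 46.3 FPKM.

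Gm10076, the member with the highest mean, has an uncertain level, because it is a near copy of the ribosomal protein gene Rpl41. Their transcripts are 99.5% identical over 383 bases, and the whole coding sequence of Rpl41 occurs in Gm10076 with 0 differences, at positions 42 to 119 of its transcript. Both 78-base stretches are printed to show this.
Gm10076: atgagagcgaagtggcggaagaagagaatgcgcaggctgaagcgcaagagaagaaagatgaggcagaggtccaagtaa
Rpl41: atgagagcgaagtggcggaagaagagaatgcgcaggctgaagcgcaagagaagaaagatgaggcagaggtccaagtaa
Gm10076 was at 14.1, 73 and 141 FPKM in NC, at 23.4, 61.5 and 159 FPKM in HFD and at 22.8, 131 and 237 FPKM in SZ-A mice, so each group spanned a wide range and all overlapped. Rpl41 was at 187, 242 and 308 FPKM, at 114, 209 and 253 FPKM and at 112, 245 and 256 FPKM. The mice with most Gm10076, which were SZ-A4 (237 FPKM), SZ-A2 (212 FPKM) and HFD3 (159 FPKM), were those with least Rpl41 (112, 112 and 114 FPKM). How the reads were divided between the copies was not tested. The summed level of the members was 1382, 1533 and 1850 FPKM in NC, 1388, 1466 and 1710 FPKM in HFD and 1470, 1670 and 1752 FPKM in SZ-A mice, and the medians without Gm10076, in the same order of groups, were 1466, 1395 and 1529 FPKM. The members made up 0.328% to 0.445% of all FPKM of a mouse.

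**Figure D4:**
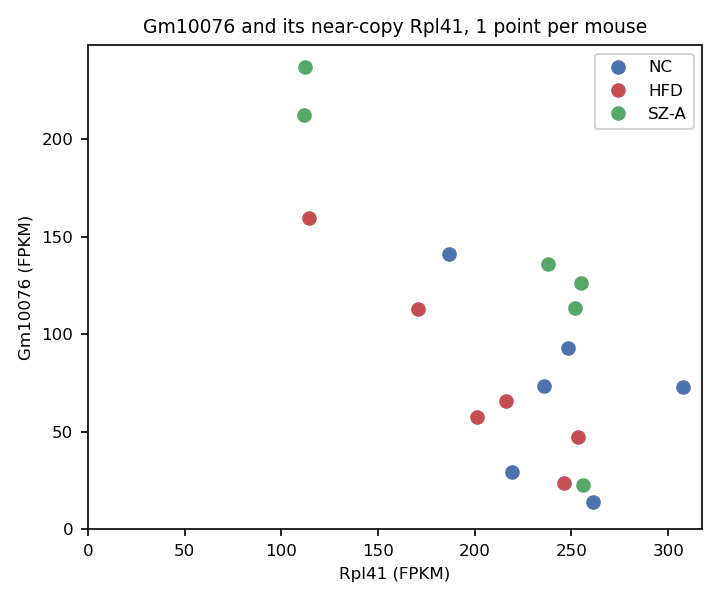
Level of Gm10076 against that of its near copy Rpl41 in each of the 18 mice (FPKM on both axes, 1 point per mouse, coloured by group). The 3 mice with the most Gm10076, at 159 to 237 FPKM, are those with the least Rpl41, at 112 to 114 FPKM.

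Known classes of lncRNA are given by list. Of all genes tested, 20.2% were called in HFD against NC, 9.6% in SZ-A against NC and 0.147% in SZ-A against HFD. Lists this small cannot show whether a class is called less often than other genes. Of 21 genes that host small nucleolar RNAs, 19 were in the table and 10 were members, and 0 of the 10 were called in any comparison. Their median log2 fold change was −0.28 in HFD against NC (2 of 10 positive), 0.16 in SZ-A against HFD (7 of 10 positive) and −0.17 in SZ-A against NC (2 of 10 positive), against −0.03, 0.03 and −0.01 for all genes. Their summed level was 50.2 to 96.1 FPKM in NC, 41.9 to 70.6 FPKM in HFD and 53.6 to 68.2 FPKM in SZ-A mice, and the groups overlapped. Epb41l4aos was the highest of them, at 16.1, 20.1 and 32.7 FPKM in NC, 13, 16.8 and 24.6 FPKM in HFD and 17.3, 20.7 and 23.5 FPKM in SZ-A mice. Gas5, a growth arrest RNA, was at 7.79, 10.3 and 11.4 FPKM, 5.9, 8.29 and 10 FPKM, and 6.61, 8.95 and 10.7 FPKM in the same order. Snhg6 (medians 10.4, 7.9 and 8.96 FPKM) and Snhg8 (medians 10.6, 8.76 and 8.28 FPKM) lay at a like level, and Snhg1, Snhg5, Snhg12, Snhg18, Snhg20 and Zfas1 were lower.

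Of 16 lncRNAs of the nucleus and chromatin, 4 were members, with a median of −0.18 in HFD against NC. Of these, 0 were called in HFD against NC (all genes 20.2%), SZ-A against NC (9.6%) or SZ-A against HFD (0.147%). Malat1, a speckle RNA, was at 12.9, 16.8 and 26.5 FPKM in NC, at 6.58, 15.7 and 20.9 FPKM in HFD and at 11.1, 14 and 31.3 FPKM in SZ-A mice. Neat1, the scaffold of paraspeckles, was at 2.14, 3.3 and 9.8 FPKM, at 1.49, 4.39 and 6.84 FPKM and at 2.04, 3.56 and 4.96 FPKM, and for both all groups overlapped. Tug1, which is linked to Polycomb and to mitochondrial metabolism, was at 3.86, 4.09 and 4.46 FPKM in NC and at 3.37, 3.44 and 3.66 FPKM in HFD mice, with no overlap. Its log2 fold change of −0.24 (SE 0.07, limma adjusted p = 0.0192) passed the test but not the fold change of 1.2, and it shrank to −0.06 under another scaling. Firre, an X-linked nuclear RNA, had group means of 1.88, 1.78 and 1.87 FPKM. Of 9 imprinted lncRNAs only Peg13 was a member (means 2.15, 2.52 and 2.03 FPKM), and of 16 microRNA hosts only Mir22hg (means 10.2, 9.13 and 10.4 FPKM), and neither was called.

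Of 8 lncRNAs antisense to metabolic or liver genes, 5 were in the table and 2 were members. Of these, 0 were called in HFD against NC (all genes 20.2%), SZ-A against NC (9.6%) or SZ-A against HFD (0.147%). Gm15441, antisense to Txnip, an inhibitor of thioredoxin that glucose and fasting induce, was at 7.21, 18.3 and 32 FPKM in NC, at 1.51, 6.1 and 22.9 FPKM in HFD and at 2.08, 5.75 and 15.3 FPKM in SZ-A mice. Its log2 fold change in HFD against NC was −1.43 (SE 0.54, limma adjusted p = 0.077), which was not called. Without HFD4, the HFD mouse at 22.9 FPKM, it was called (−1.82, adjusted p = 0.0193). Hnf4aos was at 1.29 to 7.83, 2.24 to 6.71 and 1.56 to 6.06 FPKM. The plot of known lncRNAs shows these ranges.

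**Figure D5:**
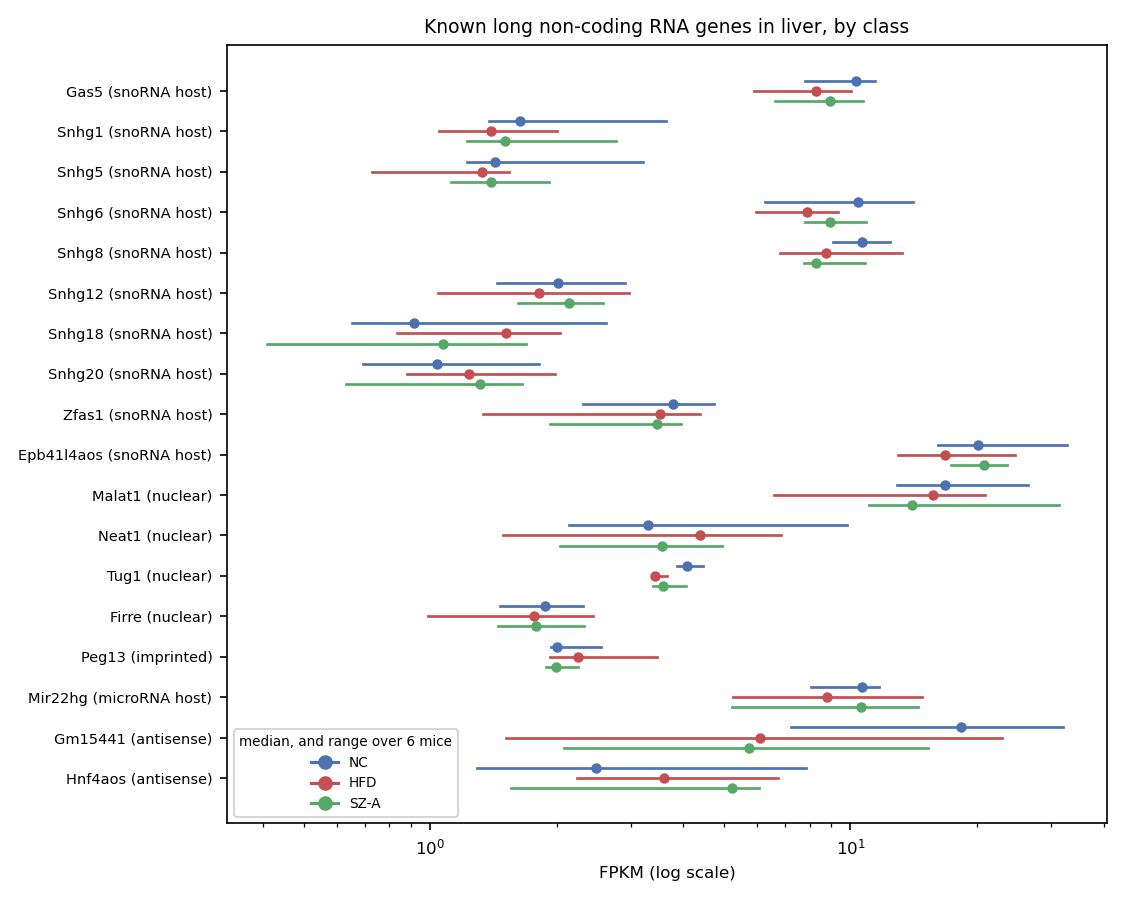
Levels of 18 members from lists of known lncRNA classes (FPKM, log axis), with a point for the median and a line for the range of the 6 mice of each group. The ranges of the groups overlap for nearly all of them, an exception being Tug1, where all HFD mice lie below all NC mice.

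For members called in HFD against NC that share exon bases with a coding gene, 21 of 29 coding partners were tested and 4 were called, 3 in the same direction as the member and 1 in the opposite one, where 20.2% of all genes were called. Of 6 partners of members with overlapping bodies only, 4 were called, 3 in the same direction. Of the 39 members without overlap, 30 had a tested nearest coding gene and 11 of these were called, 8 in the same direction and 3 in the opposite one. For the members called in SZ-A against NC, 5 of 29 tested partners were called, all in the same direction, where 9.6% of all genes were called. Whether partners were called more often than other genes was not tested.

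Markers of some liver cell types, but not of all, were called with the diet as well, where 10.7% of all genes were called higher and 9.49% lower. In HFD against NC 4 of 9 tested Kupffer cell and macrophage markers and 7 of 10 stellate cell markers were called higher, 4 of 10 hepatocyte markers lower, 2 of 3 neutrophil markers higher, 1 of 8 endothelial markers higher, 0 of 2 cholangiocyte markers, 0 of 1 B cell markers and 0 of 5 red blood cell markers, and 0 of 6 T cell markers reached the threshold for testing. The summed macrophage markers were at 133 to 253 FPKM in NC, 203 to 385 FPKM in HFD and 218 to 294 FPKM in SZ-A mice, and the summed stellate cell markers at 44.6 to 67.4, 53.5 to 111 and 48.8 to 71.1 FPKM. The adipocyte list rose through Cfd, whose highest values were 7.47 FPKM in NC, 135 FPKM in HFD and 30.9 FPKM in SZ-A mice, while the defining markers Adipoq and Plin1 stayed at or below 0.618 and 0.294 FPKM in every mouse. In SZ-A against HFD 1 of 9 macrophage markers was called lower (all genes 0.0685%). In SZ-A against NC 1 of 9 macrophage markers, 2 of 10 stellate cell markers and 2 of 3 neutrophil markers were called higher (all genes 5.31%). Lower were 2 of 10 hepatocyte markers and 1 of 2 cholangiocyte markers (all genes 4.3%). The part of cell composition in the members' changes was not tested, and in RNA of whole liver fewer cells of a type and less RNA per cell cannot be told apart.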

How the data were processed

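Total RNA of mouse liver was selected for poly-A, and the authors made libraries with a kit not stated to keep strand, sequenced them as 150-base pairs (Illumina NovaSeq) and aligned the reads to mm10 (GRCm38). The submitters' processing notes name HISAT2 2.0.5 and featureCounts 1.5.0-p3. The authors deposited FPKM, without a filter on low values, and tested counts with DESeq2, which was not repeated on these normalized values. FPKM times gene length gave whole fragments for 100% of values above 0 (tolerance 0.05), which gave the depth and the input for voom. The library size behind FPKM was 0.9325 to 1.1414 times the fragments on genes, which is why rescaling matters.

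Sample titles gave groups and replicate numbers. limma 3.58.1 (R 4.3.3) (lmFit, then eBayes with trend) was fitted to log2(FPKM + 0.1) of the 2 groups of each comparison, for the 10216 genes averaging 1 FPKM or more. A fold change on this scale understates the change of low genes. A call needed an adjusted p (Benjamini-Hochberg) under 0.05 together with a fold change over 1.2. No pair of mice within a group was a duplicate. The code was tested on simulated data. Positions came from GENCODE M21 and windows from RefSeq. Near copies were sought with BLAST 2.17.0 (identity of at least 95%) among transcripts not annotated as lncRNA. Python 3.11.15, numpy 2.4.6, pandas 2.3.3 and matplotlib 3.10.9 were used for the rest.

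The members and the lists were chosen with earlier results of these data known. Named were, per comparison and direction, the 5 called members of lowest adjusted p (where fewer than 3 were called, the 3 with the smallest p), the 10 highest members, list members, those next to the threshold, overlapping or nearest coding genes, and the 5 members and 5 coding genes most like Gm45044. Exceptions are stated where named. Some genes that the rule covers are left out. Alternatives were pseudocounts of 1 and 0.01, no filter or a filter at 5 FPKM, rescaling to the same FPKM sum, median-ratio scaling, a single fit to all mice, no trend in eBayes, weights for samples, the replicate number as a block, leaving out each mouse, adjusted p alone, voom on plain totals, members without overlap and other member thresholds. Added after seeing the data were voom on median-ratio library sizes, members without those RefSeq lists as coding or pseudogene, and members without near copies.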

Additional observations from a re-analysis of the deposited data

Results flagged for a closer look

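For each of 52 named members, the highest and the lowest mouse of each group of 6 were compared with the rest by Dixon's criterion at 95% (the gap to the next mouse, as a share of the group's range). Of 156 groups 19 stood out, 16 with a high and 3 with a low mouse. For values that follow a normal distribution chance gives about 1 in 20. The criterion was applied to FPKM without a log scale, and whether that rate holds for FPKM was not tested. They fell mostly on NC5 (9) and SZ-A5 (5), and 2 fell on HFD6. The levels of a mouse are not independent between members.

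In NC5 the high values were 9.29 FPKM for 3930402G23Rik (next mouse 3.43), 16.6 for Gm30784 (8.16), 73.5 for Gm26917 (38.9), 34.8 for Tmem250-ps (27.8), 3.64 for Snhg1 (1.65), 3.21 for Snhg5 (1.72), 2.62 for Snhg18 (1.21), 9.8 for Neat1 (4.03) and 2.33 for C4a (1.49). In SZ-A5 the high values were 1.07 FPKM for 3930402G23Rik (0.214) and 2.77 for Snhg1 (1.66), and the low ones were 4.52 FPKM for C730036E19Rik (13.3), 36.9 for 0610005C13Rik (43.8) and 1.56 for Hnf4aos (4.60).

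HFD6 was high for 2 of the members beyond Irs2, at 4.8 FPKM for Gm45044 (2.45) and 1.55 FPKM for B930025P03Rik (0.656). Without HFD6 the number of members called in SZ-A against HFD was again 1 (all genes 13). The other high values were 22.9 FPKM for Gm15441 in HFD4 (7.96), 45.7 FPKM for Gm26917 in SZ-A1 (31.9) and 0.377 FPKM for Gm34654 in SZ-A2 (0.103).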

How the results depend on the processing

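Members called in SZ-A against HFD numbered 1, and 0 with no filter on low values, with eBayes without trend, with the replicate number as a block and with voom on median-ratio library sizes. In these settings with 0 members, all genes called numbered 3 of 25925, 11, 0 and 28, in the order given, against 15 in the main fit. Counts in brackets are of all genes. Members called numbered 2 with all 18 mice in one fit (35) and 4 with sample weights (233). All genes called rose there as well, so these counts do not set the members apart. With 1 mouse left out, members called numbered 0 to 2 (2 to 49). They were 2 without HFD5 (45) or SZ-A2 (49), 1 without HFD6 (13) and 0 without any of the others. The median log2 fold change, 0.09, was −0.084 with rescaled FPKM and −0.017 with voom on plain totals (0.07 to 0.13 with 1 mouse left out). The median of all genes, 0.03, moved the same way, to −0.15 and −0.09 in that order. Members called in HFD against NC numbered 74 (2062), and 44 with no filter (1919 of 26205). At a mean FPKM of at least 5 they numbered 23 of 67 (1271 of 5183). They were 39 of the 166 without body overlap, and 57 to 70 with 1 mouse left out (1646 to 2145). The median, −0.13, was 0.052 with rescaled FPKM and 0.019 with voom on plain totals (−0.16 to −0.08 with 1 mouse left out). That of all genes, −0.03, moved the same way, to 0.15 and 0.12. In SZ-A against NC the 43 (981) became 23 with no filter (637 of 26002) and 68 with sample weights (1682). They were 18 of 67 at 5 FPKM (711 of 5183) and 28 of 166 without body overlap. With 1 mouse left out they numbered 27 to 50 (601 to 1179), and 27 without SZ-A3 (601). The median in SZ-A against NC, −0.05, ranged from −0.10 to 8.5e-05 with 1 mouse left out. The causes were not tested, beyond fewer or more genes entering under the filters. At a threshold of 0.5 or 2 FPKM there were 483 or 156 members.

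Deviations from the group means correlated at −0.12 to 0.29 between mice of the same number. SZ-A2 was most like its own number among HFD mice, as was HFD4 among NC mice. So were SZ-A3, SZ-A4 and SZ-A5 among NC mice, and the others were not. Whether the numbers stand for a shared batch or order was not tested, and the main fits treated the mice as unpaired. The replicate block gave 0, 69 and 40 members called in SZ-A against HFD, HFD against NC and SZ-A against NC (all genes 0, 1647 and 922).

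Of 1520 alternative values for single genes, 1404 kept direction and side of the threshold, 78 lost the call, 13 gained it and 25 turned direction, each for a gene that was not called in that comparison. In SZ-A against HFD, 1810058I24Rik (0.05) was −0.13 rescaled, −0.065 with voom on plain totals and −0.024 to 0.17 with 1 mouse left out (below 0 without SZ-A1 or SZ-A2). Gm15318 (0.07) was −0.10, −0.043 and −0.063 to 0.16 (below 0 without HFD6, SZ-A1 or SZ-A2), and Ctcflos (0.07) was −0.10, −0.044 and −0.041 to 0.23 (below 0 without HFD5 or SZ-A5), in the same order. 1700080G11Rik (0.17) was −0.0031 rescaled. Gm11832 (0.02) was −0.043 at a pseudocount of 1, −0.15 rescaled, −0.19 with sample weights, −0.048 with voom on plain totals and −0.48 to 0.20 with 1 mouse left out (below 0 without HFD6, SZ-A2 or SZ-A4). In HFD against NC, 2900097C17Rik (−0.16) was 0.033 rescaled. In SZ-A against NC, Gm16536 (−0.03) was 0.012 with sample weights, 0.016 with voom on plain totals and −0.089 to 8.5e-05 with 1 mouse left out (above 0 without NC5). Depth limits the low members: 57 had a median under 20 fragments.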

Other observations

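Some members lie beside or inside genes of liver metabolism or immunity and were named here after their values were seen. Gm36172, which starts 135 bases from the start of the urea cycle gene Arg1, was at 4.76, 9.21 and 14.8 FPKM in NC (lowest, median and highest) and at 3.48, 5.03 and 5.68 FPKM in HFD mice. It fell by 0.78 on the log2 scale in HFD against NC (SE 0.24, limma adjusted p = 0.0356) and Arg1 fell by 1.14 (SE 0.20, adjusted p = 0.00191). Gm15622, antisense to Bhmt of methionine metabolism, fell by 1.2 (SE 0.29, adjusted p = 0.0106) and Bhmt fell by 1.23 (SE 0.23, adjusted p = 0.0028). Gm35986, antisense to the fatty acid elongase gene Elovl6, fell by 1.05 (SE 0.34, adjusted p = 0.0417), while Elovl6 was not called (−0.75, SE 0.26, adjusted p = 0.0583). The calls of Gm36172 and Gm35986 were lost in 10 of 24 and 12 of 23 alternative settings. Gm15622 and Gm35986 share 12.8% and 4.32% of their exon bases with the coding gene, and the part of such reads in the values was not tested.

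Among members that RefSeq lists otherwise, Ifi30, a lysosomal thiol reductase of antigen processing, was at 10.8, 12.4 and 13.8 FPKM in NC, at 14.4, 22.1 and 24.4 FPKM in HFD and at 16.2, 17.4 and 18.9 FPKM in SZ-A mice. It rose by 0.74 (SE 0.13, limma adjusted p = 0.00155) in HFD against NC, where 4 of 9 macrophage markers were also called higher (all genes 10.7%). C4a, a copy of the complement gene C4b with 96.0% identity, was at 1.14, 1.38 and 2.33 FPKM in NC and at 2, 4 and 5.44 FPKM in HFD mice, a rise of 1.24 (SE 0.22, adjusted p = 0.00214), and C4b rose by 0.92 (adjusted p = 0.000489). The highly conserved lncRNA genes 2900097C17Rik (Norad) and 1700020I14Rik (Cyrano) had narrow ranges. Norad was at 21.8, 24.5 and 27.7 FPKM in NC and 19.9, 21.5 and 25.6 FPKM in HFD mice (−0.16, adjusted p = 0.187). Cyrano was at 8.02, 9.99 and 11.2 FPKM and at 7.45, 8.31 and 8.81 FPKM (−0.26, adjusted p = 0.041, a fold change under 1.2).

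The members that varied most within groups, on the log2 scale, were Gm32468 (SD 1.79) and Gm48199 (SD 1.74). Gm48199 was at 1.71 to 68.8 FPKM in NC, 0 to 1.2 FPKM in HFD and 0.203 to 6.57 FPKM in SZ-A mice, and its highest NC and SZ-A mice were NC5 and SZ-A5. Gm15611 (mean 10.9 FPKM) reached 46.6 FPKM in SZ-A5 and was at 1.37 FPKM in NC5.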
